A study of Homo sapiens with 6 samples.

Results

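Monocytes and their leukaemic relatives read their surroundings through a small set of surface and recognition receptors, and the 10 genes described here encode such proteins. They were CSF1R, ITGAM, FCGR1A, FCGR2A, TLR2, TLR4, CLEC7A, CD86, CCR2 and FCN1. They were taken by gene symbol as 10 of the 34114 genes in the deposited count table, and all 10 were among the 19575 genes tested.

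As background, the colony stimulating factor 1 receptor (CSF1R) is a receptor kinase that sustains the monocyte and macrophage lineage. The integrin chain ITGAM pairs with ITGB2 for adhesion and uptake of complement-coated particles, and the Fc receptors FCGR1A and FCGR2A bind the constant part of IgG. Toll-like receptors, the lectin receptor CLEC7A and the secreted ficolin FCN1 recognise microbial molecules, CD86 costimulates T cells, and CCR2 guides monocytes along the chemokine CCL2.

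MOLM-14, NOMO-1 and SKM-1 are established human acute myeloid leukaemia cell lines. Each line was transfected either with a short hairpin RNA (shRNA) against NCAM1, a neural cell adhesion molecule also called CD56, or with a scrambled control shRNA, and was profiled by RNA sequencing at 72 h. The NCAM1 knockdown group and the control group held 3 libraries each, 1 per line, so no line had a replicate of either condition. The sources used here do not give whether each line is a single clone, whether transfected cells were selected or the sequence of the hairpins.

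Reads assigned to genes numbered 41916991 to 47688779 per library. NCAM1 was lower in the knockdown library of each line, with normalized read counts of 1896 against 6004 in MOLM-14, 312 against 1163 in NOMO-1 and 101 against 12537 in SKM-1. The SKM-1 pair stood apart from the other pairs. There, 28.8% of genes with at least 100 normalized counts in 1 of the pair's libraries differed 2-fold or more, against 7.71% in NOMO-1 and 2.16% in MOLM-14. The knockdown columns carry the tag sh59 in MOLM-14 and NOMO-1 and sh59a in SKM-1, and no source used here says whether the extra letter marks another hairpin. Of a list of 9 general leukocyte and myeloid markers, 7 to 9 had at least 10 normalized counts in every library, PTPRC, SPI1 and CD33 among them. Of 13 monocyte and macrophage markers, 8 to 11 did. In that list CD14, CD68 and CD163 stood at no more than 27.4, 10.4 and 14.6 normalized counts in any library. LYZ, CTSS and CST3 of the same list had lowest levels of 2455, 2868 and 2736. Whether reads of the low genes were dropped in counting was not tested.

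The promoters of 9 of the 10 genes were found in the RefSeq promoter table of build GRCh38.p14, in 11 windows of 300 bases that run from 250 bases before the start of the gene to 50 after it. CLEC7A was not among them. CD86 and ITGAM are shown because they had the highest ratios in SKM-1 of the genes with a window, and CCR2 because it had the lowest. All are printed on the strand of the gene. Capitals in the CD86 window (chr3:122055112-122055411, plus strand) and the ITGAM window (chr16:31259725-31260024, plus strand) mark GAGGAA, a core word of sites for PU.1, the product of SPI1, on either strand, so its reverse complement is also in capitals. In the CCR2 window (chr3:46353861-46354160, plus strand) capitals mark the matches of all the motifs searched.
CD86: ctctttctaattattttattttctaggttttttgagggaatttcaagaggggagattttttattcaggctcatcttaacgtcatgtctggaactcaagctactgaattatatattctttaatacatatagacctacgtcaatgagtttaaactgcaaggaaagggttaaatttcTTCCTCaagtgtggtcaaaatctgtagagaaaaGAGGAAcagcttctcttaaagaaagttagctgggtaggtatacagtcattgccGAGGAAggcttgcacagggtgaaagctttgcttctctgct
ITGAM: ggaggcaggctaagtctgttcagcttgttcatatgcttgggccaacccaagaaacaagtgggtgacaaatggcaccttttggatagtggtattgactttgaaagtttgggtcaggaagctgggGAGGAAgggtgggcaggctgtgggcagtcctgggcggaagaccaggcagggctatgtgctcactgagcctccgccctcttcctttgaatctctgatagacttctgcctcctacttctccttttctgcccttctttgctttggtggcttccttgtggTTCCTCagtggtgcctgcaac
CCR2: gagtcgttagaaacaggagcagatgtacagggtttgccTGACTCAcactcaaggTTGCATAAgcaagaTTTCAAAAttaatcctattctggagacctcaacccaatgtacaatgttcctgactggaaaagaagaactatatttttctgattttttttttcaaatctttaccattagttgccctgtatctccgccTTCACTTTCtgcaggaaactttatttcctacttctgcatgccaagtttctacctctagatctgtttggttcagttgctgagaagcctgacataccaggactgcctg

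The windows of the Fc receptor genes FCGR1A (chr1:149782444-149782743, plus strand) and FCGR2A (chr1:161505207-161505506, plus strand) are shown because they share a run of 20 bases, the longest common to them. Capitals mark that run, which begins 52 bases before the start of FCGR1A and 51 bases before the start of FCGR2A and holds GAGGAA on the opposite strand.
FCGR1A: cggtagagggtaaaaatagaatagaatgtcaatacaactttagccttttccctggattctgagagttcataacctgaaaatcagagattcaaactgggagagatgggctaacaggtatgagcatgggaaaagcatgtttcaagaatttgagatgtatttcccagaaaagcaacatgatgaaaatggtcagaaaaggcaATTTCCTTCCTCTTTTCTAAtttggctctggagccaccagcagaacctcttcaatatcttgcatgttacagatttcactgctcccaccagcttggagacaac
FCGR2A: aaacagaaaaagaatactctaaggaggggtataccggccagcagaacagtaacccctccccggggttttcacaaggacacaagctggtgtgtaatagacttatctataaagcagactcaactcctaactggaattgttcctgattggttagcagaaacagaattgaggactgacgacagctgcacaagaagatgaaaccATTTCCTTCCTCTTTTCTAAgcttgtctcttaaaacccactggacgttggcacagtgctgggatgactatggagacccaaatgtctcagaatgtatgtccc

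Read on both strands, GAGGAA was present in 7 of the 11 windows, against 27.9% of the 35116 windows in the table. It was found for 7 of the 9 genes, and was not in the CCR2 or TLR2 window. CD86 and CSF1R each have another window, which did not hold it either. The printed CD86 window held it 3 times, at 76 and 43 bases before the start and 10 bases after it, and the ITGAM window held it 2 times. The C/EBP word TTNNGNAA was in 5 windows against 36.8% of all windows, the RUNX word TGTGGT in 4 against 13.1%, and the AP-1 word TGANTCA in 2 against 7.71%. The IRF word GAAANNGAA was in 2 windows against 8.11%, and the NF-kB word GGANTTTCC in 1, that of TLR2, against 1.64%. In the printed CD86 window the C/EBP match and a GAGGAA match overlap, since both begin 76 bases before the start. These matches are descriptions of letters in the windows, not of binding.

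The first comparison asked how the receptors differed between NCAM1 knockdown and control within each line. SKM-1 showed the widest differences of the set: CD86, CLEC7A, ITGAM, FCN1 and TLR2 were at least 2-fold higher with NCAM1 knockdown and CCR2 was at least 2-fold lower. In NOMO-1, CLEC7A and CD86 were higher and CSF1R and TLR2 lower by that measure. In MOLM-14 none of the 8 genes with at least 100 normalized counts in 1 of its libraries passed 2-fold in either direction. With 1 library per condition these ratios have no replicate check, and the 95% intervals given below cover counting error only. These are bulk libraries, so fewer cells that express a gene and less RNA per cell cannot be told apart.

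**Figure D1:**
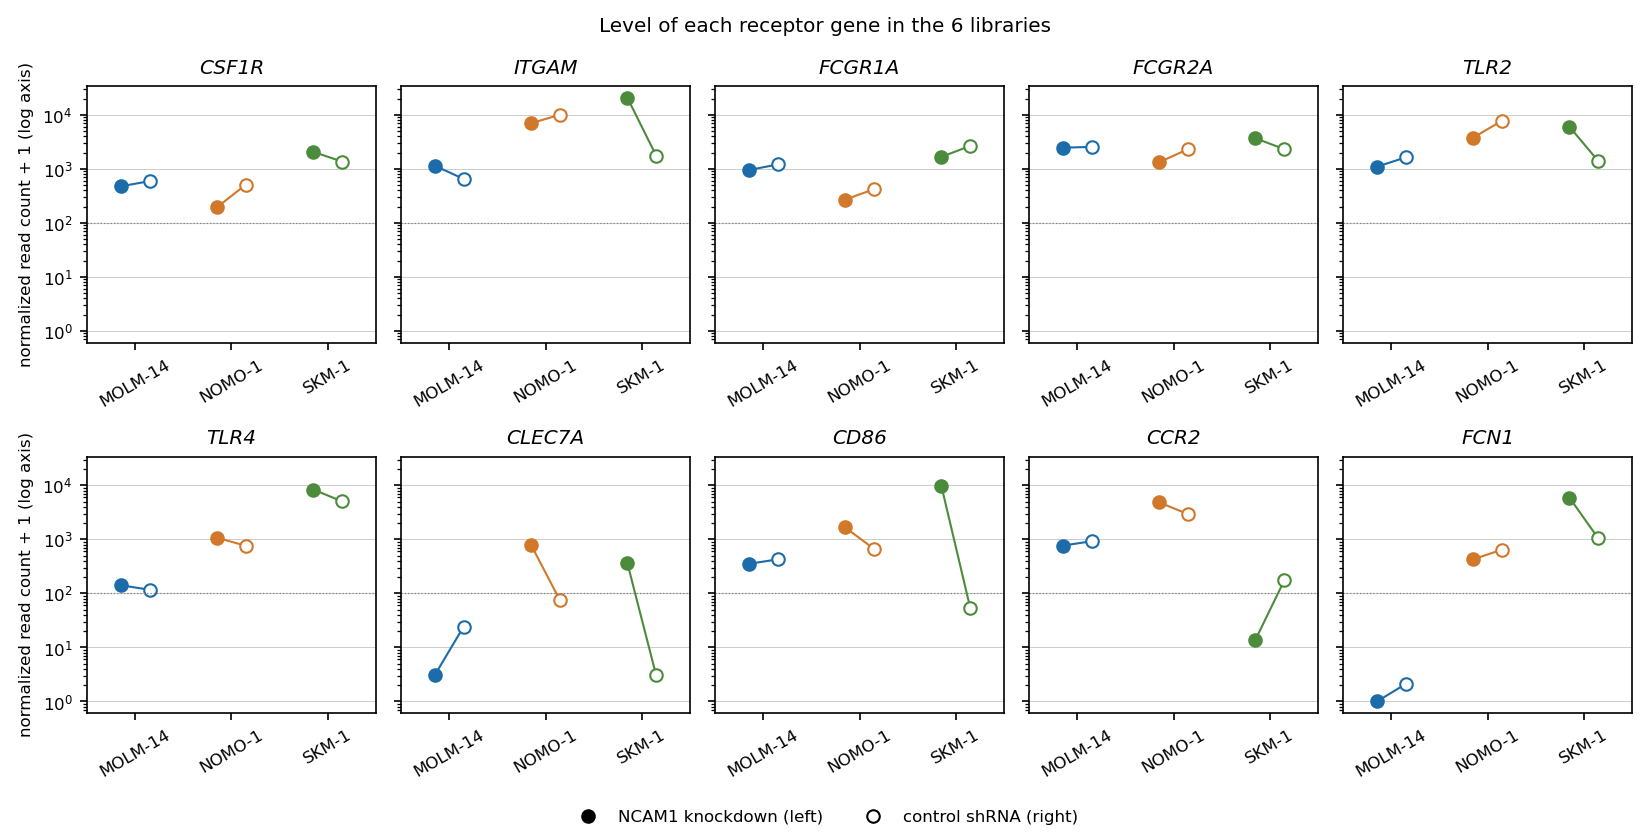
Normalized read count plus 1 (log axis) of the 10 receptor genes in the 6 libraries, with the NCAM1 knockdown library (filled) to the left of the control library (open) for each line. The dotted line marks 100 normalized counts. CD86 and CLEC7A show the steepest pairs in SKM-1, while FCGR1A slopes the same way in all 3 lines.

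The share of members at least 2-fold higher or lower has to be read against all genes with at least 100 normalized counts in 1 of the pair's libraries. In SKM-1, 5 of the 10 members were higher, against 13.9% of 13510 genes, and 1 of 10 was lower, against 14.9%. In NOMO-1, 2 of 10 were higher, against 2.06% of 13278 genes, and 2 of 10 lower, against 5.66%. In MOLM-14, 0 of 8 were higher, against 0.753% of 12614 genes, and 0 of 8 lower, against 1.4%. Some members reached 100 counts in only 1 library of a pair: CD86, CLEC7A and CCR2 in SKM-1, and CLEC7A in NOMO-1. For such genes, and for list genes below that did so, the direction follows from the filter. Counts for the gene lists below are to be read against the same shares of all genes. The median log2 ratio of the members was 1.42 in SKM-1, where that of all such genes was -0.035, and -0.56 in NOMO-1, where that of all such genes was close to 0 at -0.00014. Over the 8 members measured in MOLM-14 it was -0.27, against -0.00041.

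**Figure D2:**
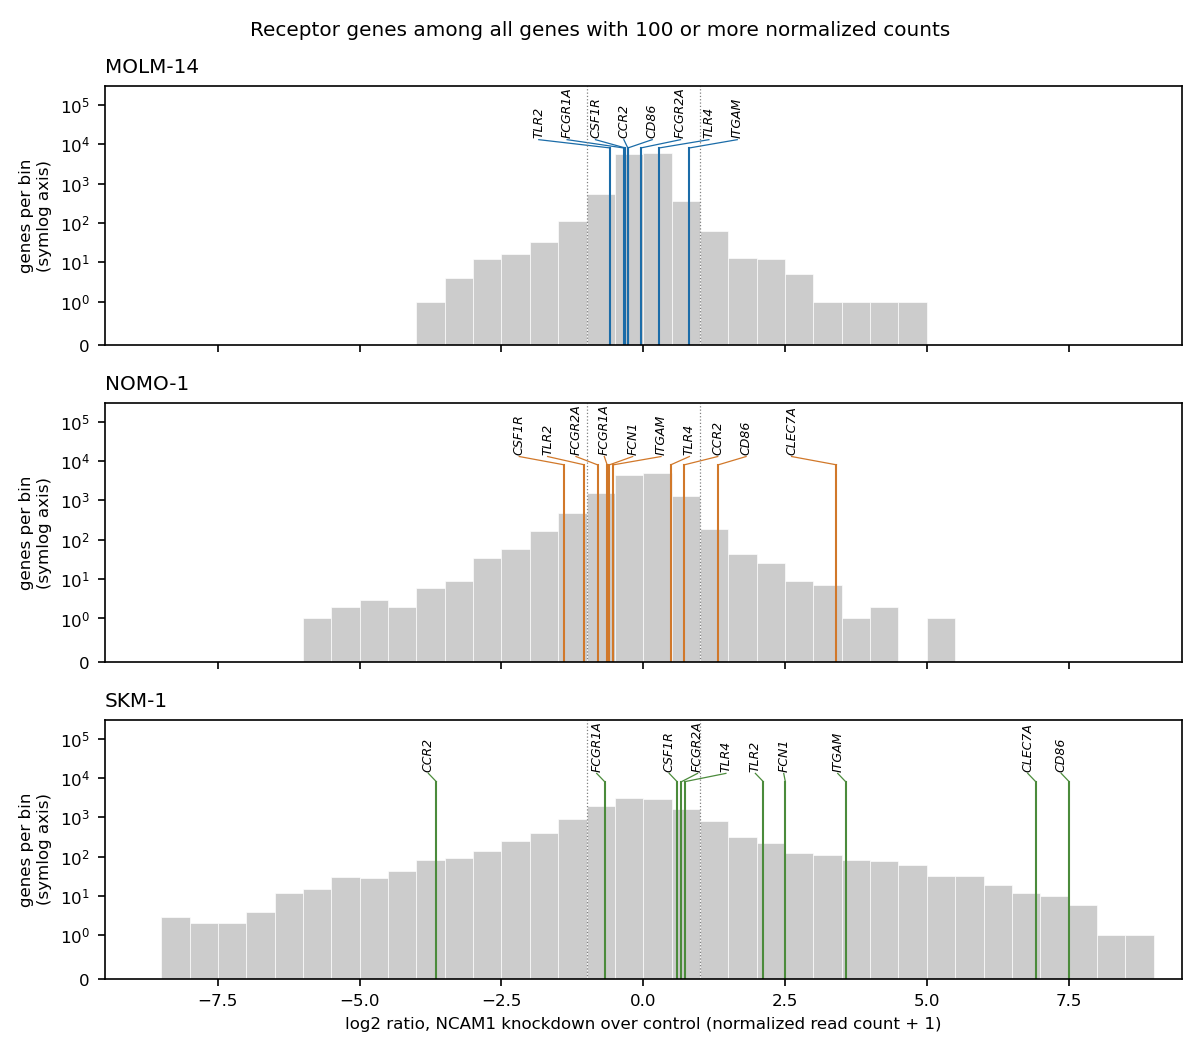
Histograms of the log2 ratio of NCAM1 knockdown over control for all genes with at least 100 normalized counts in 1 library of the pair, in 0.5-wide bins on a symlog count axis, one panel per line. Coloured lines mark the receptor genes and dotted lines 2-fold. The SKM-1 distribution is the widest, with CD86 and CLEC7A far on its right and CCR2 on its left.

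CSF1R had 476 normalized counts with NCAM1 knockdown and 593 in the control of MOLM-14, 194 against 513 in NOMO-1, and 2069 against 1367 in SKM-1. Its direction differed between lines. It was 2.64-fold lower in NOMO-1 (95% interval 2.25 to 3.11) and 1.51-fold higher in SKM-1 (1.41 to 1.62). Of 7 genes for its ligands and related growth factor receptors, 6 were found and 5 had at least 100 counts in a SKM-1 library, of which 0 were at least 2-fold higher and 2 lower. Those were FLT3, a receptor kinase of early progenitors, with 294 counts against 2580, and KIT, the stem cell factor receptor, with 570 against 1348. NOMO-1 had 1 of 4 higher, KIT with 1325 against 508, and 2 of 4 lower. The lower genes there were CSF3R, the granulocyte colony stimulating factor receptor, with 12997 against 36193, and FLT3 with 1348 against 2787. In MOLM-14 0 of 4 passed 2-fold, and the gene of the ligand CSF1 had at most 114 counts in any library.

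ITGAM, the alpha chain CD11b, had 1144 against 651 counts in MOLM-14, 7007 against 10102 in NOMO-1 and 20862 against 1757 in SKM-1. The SKM-1 knockdown library held the highest level of the 6, and the SKM-1 control lay below both NOMO-1 libraries. The SKM-1 ratio was 11.9 (95% interval 11.3 to 12.5), the MOLM-14 ratio 1.76 (1.59 to 1.95), and NOMO-1 was 1.44-fold lower with knockdown (1.40 to 1.48). Per kilobase of exon, ITGAM of the SKM-1 knockdown library stood at 3668 normalized counts, percentile 98.0 of tested genes, against 309 and percentile 67.2 in the control. Its beta2 partner ITGB2 had 55110 against 15118 counts in SKM-1, a ratio of 3.65. The alternative alpha chain ITGAX (CD11c) had 16072 against 977, a ratio of 16.4. These were the 2 of 5 measured integrin partners at least 2-fold higher in SKM-1, and 0 were lower. FERMT3 and TLN1, adaptors that activate integrins, had ratios of 1.72 and 1.16. In NOMO-1 ITGAX was the 1 of 5 at least 2-fold lower, with 3839 against 11454 counts, and in MOLM-14 0 of 5 passed 2-fold.

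The Fc receptor genes differed in direction. FCGR1A, the high-affinity IgG receptor CD64, had 952 against 1210 counts in MOLM-14, 270 against 420 in NOMO-1 and 1667 against 2673 in SKM-1. It was lower with NCAM1 knockdown in all 3 lines, by 1.27-fold (95% interval 1.16 to 1.39), 1.56-fold (1.34 to 1.81) and 1.60-fold (1.51 to 1.70). FCGR2A, the activating receptor CD32A, had 2477 against 2554, 1329 against 2326 and 3700 against 2319 counts in the same order of lines. It was 1.75-fold lower in NOMO-1 (1.64 to 1.87) and 1.60-fold higher in SKM-1 (1.52 to 1.68), and its MOLM-14 ratio of 0.970 had an interval that holds 1 (0.916 to 1.03).

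Both Fc receptor genes have near-identical copies whose reads the counting can split or drop, so their levels are uncertain. With the copies FCGR1B and FCGR1C added, FCGR1A summed to 1315 against 1551 normalized counts in MOLM-14, 390 against 613 in NOMO-1 and 2007 against 3194 in SKM-1, again lower with knockdown in each line. With FCGR2B and FCGR2C added, FCGR2A summed to 8298 against 7204, 3112 against 8268 and 3873 against 2732. The summed MOLM-14 ratio of 1.15 lies on the other side of 1 from that of FCGR2A alone. Exons of FCGR1A also overlap HIST2H2BF and the antisense gene AC243772.2, which held at most 61 reads in any library.

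Of 12 Fc receptor partners and kinases, 10 were measured in SKM-1, where 3 were at least 2-fold higher and 2 lower. FCER1G, the signalling chain that FCGR1A needs at the surface, had 14397 against 1115 counts, a ratio of 12.9, and so differed in the opposite direction to FCGR1A. The SRC family kinase FGR, with 3543 against 287 counts, was also higher. The inhibitory receptor FCGR2B was 6.40-fold lower in SKM-1, with 46.8 against 300 counts. The other lower gene was INPP5D, a phosphatase that damps Fc receptor signals, with 8579 against 21050. NOMO-1 had 0 of 12 higher and 3 lower, FCGR2B, FCGR2C and FCGR3A, at 3.28-fold, 3.38-fold and 2.56-fold, all of them members of families with near-identical copies. In MOLM-14 FGR, at 459 against 1228 counts, was the 1 of 9 that passed 2-fold, and it was lower.

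**Figure D3:**
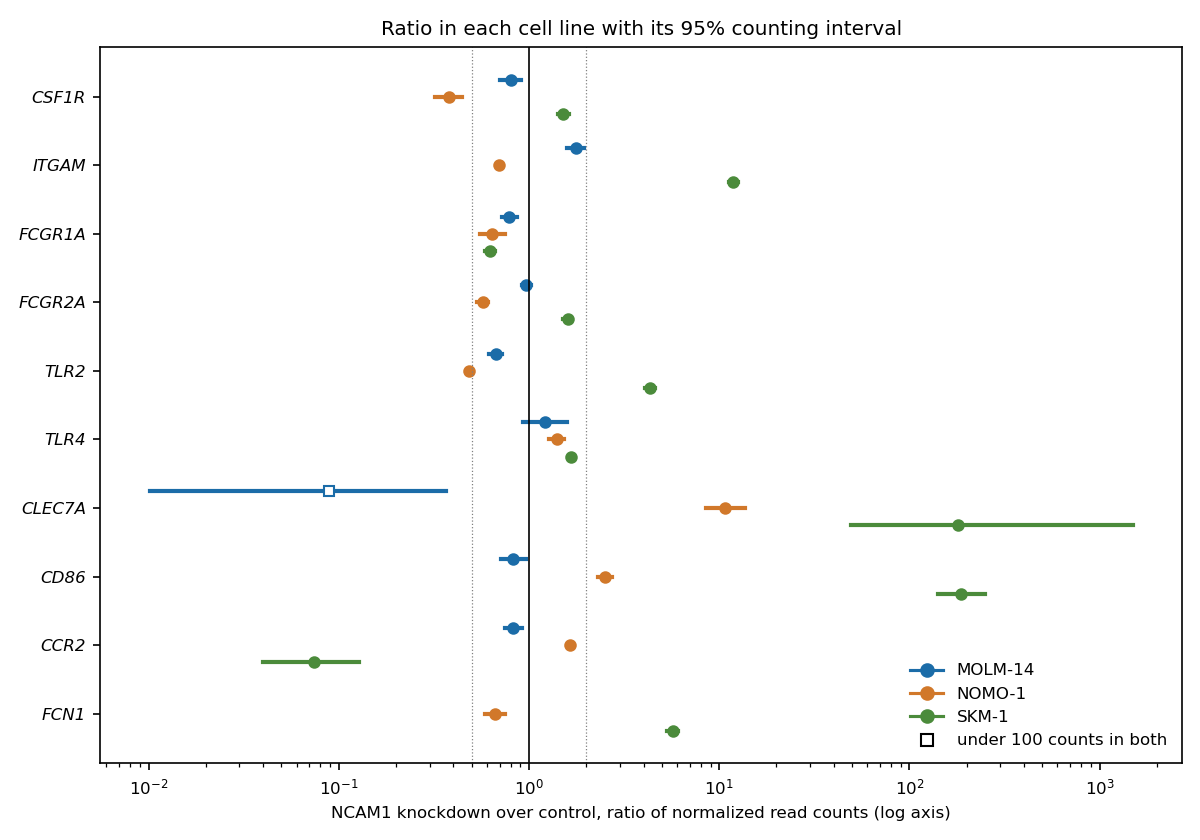
Ratio of NCAM1 knockdown over control (log axis) for each receptor gene and line, with exact conditional 95% intervals that cover counting error only. Dotted lines mark 2-fold, and FCN1 of MOLM-14 is not drawn because its libraries held 0 and 1 read. FCGR1A lies left of 1 and TLR4 right of 1 in all 3 lines.

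The pattern recognition receptors divided by line. TLR2, which senses bacterial lipoproteins together with TLR1 or TLR6, had 1097 against 1640 counts in MOLM-14, 3801 against 7816 in NOMO-1 and 6052 against 1394 in SKM-1. Its ratio was 0.669 in MOLM-14 (95% interval 0.617 to 0.724), and it was 2.06-fold lower in NOMO-1 (1.98 to 2.14) and 4.34-fold higher in SKM-1 (4.10 to 4.60). The NOMO-1 log2 ratio of -1.04 lies just past 2-fold, and it missed it with total-count scaling (-0.98), quantile normalization (-0.92) and the authors' transformed values (-0.94). TLR4, the receptor for lipopolysaccharide, had 141 against 116, 1068 against 763 and 8383 against 5056 counts in the same lines. It was higher with knockdown in each, by 1.22-fold, 1.40-fold and 1.66-fold, although the MOLM-14 interval of 0.934 to 1.58 holds 1. Exons of TLR4 overlap AL160272.2 of the annotation used here, a gene not analysed here.

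The co-receptors of TLR2 were higher in the SKM-1 knockdown library as well. TLR1 had 758 against 43.7 counts, TLR6 5725 against 554, and TLR8, an endosomal sensor of RNA, 410 against 14.2. These were the 3 Toll-like receptors besides the members with at least 100 counts in a SKM-1 library. All 3 were at least 2-fold higher. TLR1 and TLR8 reached that level only in the knockdown library, so their direction follows from the filter. Under 100 counts in both SKM-1 libraries, TLR5 was lower, with 9.18 against 61.0. TLR3 and TLR10 were higher there, with 32.1 against 0 and 65.2 against 3.05. In NOMO-1 1 of 3 was higher, TLR8 with 1799 against 791, and in MOLM-14 0 of 2 passed 2-fold. Of the 13 accessory and signalling proteins measured in SKM-1, 3 were higher and 2 lower, against 13.9% and 14.9% of all genes. LY96, also called MD-2, which holds the lipopolysaccharide bound by TLR4, had 884 against 35.6 counts, and the adaptor TIRAP had 1123 against 133. The third was TOLLIP with 2376 against 889. Lower were CD180, a TLR4 relative, with 21.1 against 162, and its partner LY86 with 275 against 768. LY96 was also the 1 of 13 at least 2-fold higher in NOMO-1, with 234 against 55.7, where IRAK2, a kinase below the Toll-like receptors, was lower with 229 against 760. IRAK2 was the 1 of 12 lower in MOLM-14, with 50.1 against 106.

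CLEC7A, known as dectin-1, is the receptor for fungal beta-glucan. It had 2.09 against 23.4 counts in MOLM-14, 791 against 73.7 in NOMO-1 and 366 against 2.03 in SKM-1. The reads behind these values were 2 against 21, 867 against 78 and 399 against 2. Ratios were 10.7 in NOMO-1 (95% interval 8.51 to 13.7) and 180 in SKM-1, whose interval of 49.6 to 1494 shows how loosely 2 reads fix it. In MOLM-14 the gene was 11.2-fold lower (2.74 to 98.7), at a level under 100 counts in both libraries. Its signalling partners CARD9, with 3067 against 981 counts, and BCL10, with 1621 against 720, were higher in SKM-1. Together with the lectin-like receptor OLR1, at 1644 against 22.4, they were the 3 of 9 measured genes of the list of C-type lectins and their signalling proteins at least 2-fold higher there, and 0 were lower. NOMO-1 had 0 of 7 higher and 1 lower, CLEC5A, which couples to the adaptor TYROBP, with 629 against 1895. MOLM-14 had 0 of 7 higher and 2 lower, the C-type lectin CD209 with 57.4 against 371 and the inhibitory receptor CLEC12A with 50.1 against 107.

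FCN1, M-ficolin, is made by monocytes and activates complement through the lectin pathway. In MOLM-14 it was at or under the limit of detection, with 0 reads with knockdown and 1 read in the control. It had 428 against 647 counts in NOMO-1, 1.51-fold lower (95% interval 1.34 to 1.70), and 5936 against 1045 in SKM-1, a ratio of 5.68 (5.32 to 6.08). MASP2, the protease that ficolins activate, had 393 against 130 counts in SKM-1, and ratios of 1.02 and 1.00 in MOLM-14 and NOMO-1.

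CD86, the B7 family ligand of CD28 and CTLA4, had 353 against 426 counts in MOLM-14, 1670 against 667 in NOMO-1 and 9816 against 52.8 in SKM-1. The SKM-1 control held the lowest level of the 6 libraries and the SKM-1 knockdown library the highest. The SKM-1 ratio was 186 (95% interval 142 to 249), from 10691 against 52 reads, the NOMO-1 ratio was 2.50 (2.29 to 2.73), and MOLM-14 was 1.21-fold lower (1.04 to 1.40). Per kilobase, CD86 stood at percentile 97.1 of tested genes in the SKM-1 knockdown library and at percentile 20.7 in its control. Of the 6 other B7 and costimulation genes measured in SKM-1, 2 were at least 2-fold higher and 0 lower. VSIR, an inhibitory B7 relative, had 8512 against 779 counts, and CD276 had 2444 against 841. CD80, the closest relative of CD86, stayed under 100 counts in all 6 libraries, with 34.0 against 1.02 in SKM-1. In NOMO-1 and in MOLM-14, 0 of 5 passed 2-fold.

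CCR2, the receptor for CCL2 on classical monocytes, had 767 against 927 counts in MOLM-14, 4856 against 2940 in NOMO-1 and 12.9 against 173 in SKM-1. It was the 1 member at least 2-fold lower in SKM-1, by 13.4-fold (95% interval 7.79 to 25.1), from 14 against 170 reads. NOMO-1 had a ratio of 1.65 (1.58 to 1.73) and MOLM-14 was 1.21-fold lower (1.09 to 1.34). Other chemoattractant receptors in SKM-1 were divided. Of 8 measured, 4 were at least 2-fold higher and 1 lower, against 13.9% and 14.9% of all genes with 100 counts. In direction alone, 6 of the 8 were higher and 2 lower. Higher were the formyl peptide receptors FPR1, with 1881 against 12.2 counts, and FPR2, with 7335 against 410, the complement C5a receptor C5AR1, with 494 against 59.9, and the CXCL12 receptor CXCR4, with 3510 against 483. The lower gene was CXCR3, with 81.7 against 390. CX3CR1, at 217 against 404, was lower by less than 2-fold. FPR1 and C5AR1 reached 100 counts only in the knockdown library, and CXCR3 only in the control. The gene of the ligand, CCL2, had 204 against 3.05 counts in SKM-1, 294 against 130 in NOMO-1 and 5.22 against 4.46 in MOLM-14. NOMO-1 had 0 of 10 receptors higher and 1 lower, CCRL2 with 112 against 354, and MOLM-14 had 1 of 6 higher, CCR7 with 212 against 73.6, and 0 lower.

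**Figure D4:**
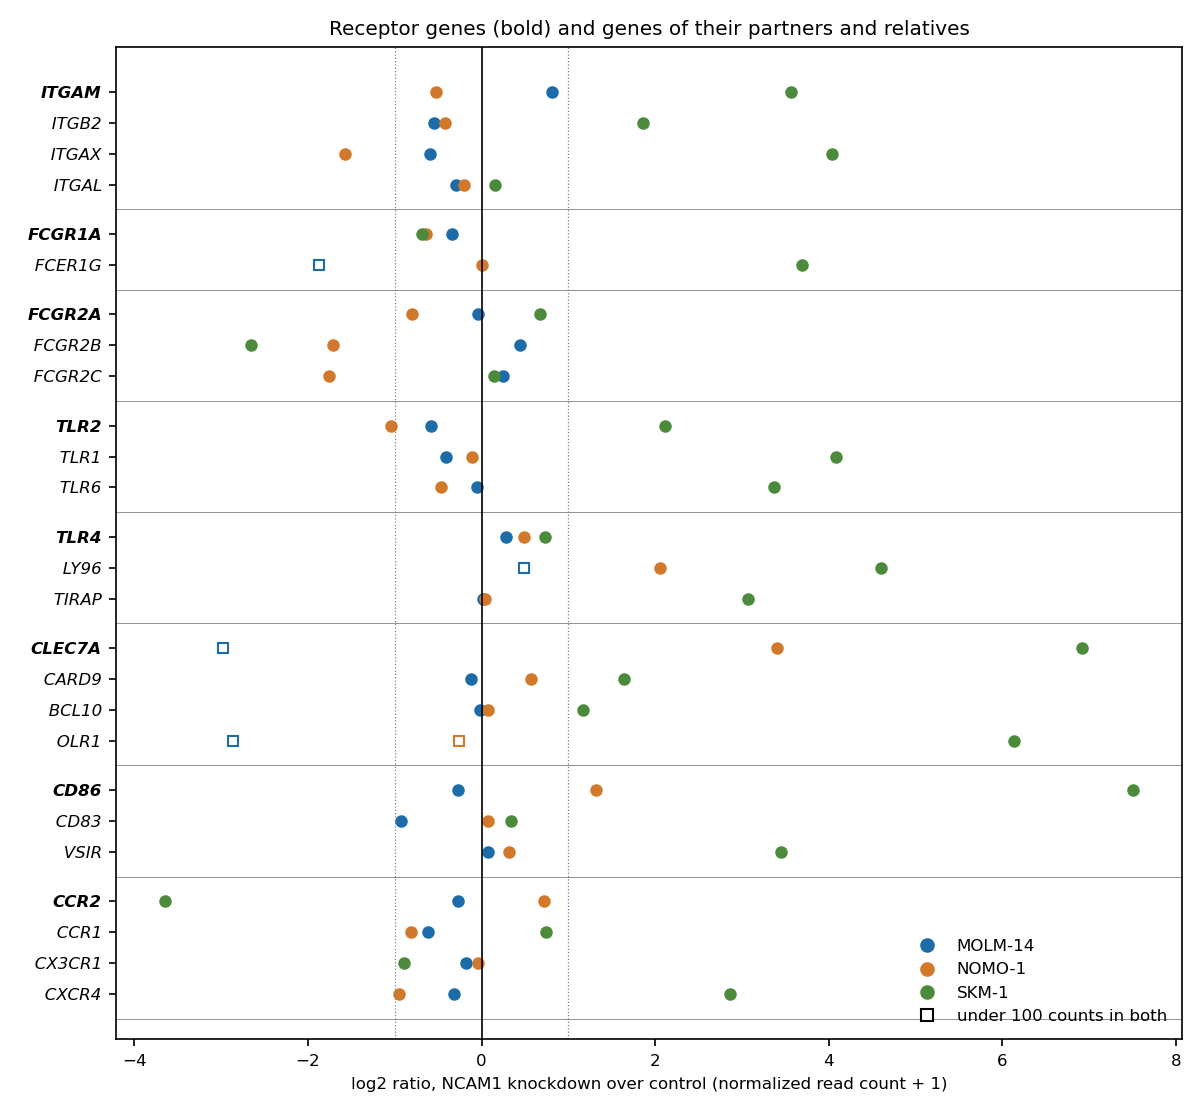
Log2 ratio of NCAM1 knockdown over control for 8 of the receptor genes (bold) and for genes of their partners and relatives, one point per line, with open squares where both libraries had under 100 counts. In SKM-1 the partners ITGB2, ITGAX, TLR1, TLR6, LY96 and FCER1G lie right of 0, while CCR2, FCGR1A and FCGR2B lie left of it.

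Scavenger and phagocytic receptors, a related group outside the set, were split in SKM-1, with 2 of 5 measured at least 2-fold higher and 2 lower. CD36, which binds oxidised lipoprotein, had 1436 against 72.1 counts and the receptor kinase MERTK 425 against 22.4. LILRB2, an inhibitory receptor for HLA class I, had 34.9 against 296 and SCARB1, which binds high-density lipoprotein, 1881 against 3956. In NOMO-1 4 of 8 were higher and 1 lower, with CD36 at 389 against 58.6 and the kinase AXL at 47.4 against 386. In MOLM-14 CD36 was the 1 of 6 that passed 2-fold and it was lower, at 60.5 against 249.

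Markers of other myeloid cells also differed between the SKM-1 libraries. Of 8 granulocyte precursor markers, 6 were measured in SKM-1, where 5 were at least 2-fold lower with NCAM1 knockdown and 0 higher. The summed level of the list was 13623 normalized counts with knockdown and 1.00159e+06 in the control, of which MPO, the myeloperoxidase gene, made up 6166 and 728824. The same list summed to 30647 against 76550 in NOMO-1 and 159899 against 111273 in MOLM-14. The late granule markers LTF and CEACAM8 stood at 5.51 against 4.06 and at 0 in both SKM-1 libraries. The monocyte and macrophage list summed to 186286 against 23596 counts in SKM-1, 65112 against 62409 in NOMO-1 and 17343 against 24205 in MOLM-14, and 7 of its 9 measured genes were higher in SKM-1 and 2 lower. S100A8 and S100A9, calcium-binding proteins of granulocytes and monocytes, made up 164673 against 1556 of the SKM-1 sums. The other 11 genes of the list summed to 21614 against 22041 there, with CST3, the cystatin C gene, at 3870 against 14712. Among 14 myeloid lineage factors, 13 were measured in SKM-1, with 6 higher and 2 lower. KLF2 had 286 against 47.8 counts there, and CEBPB 2031 against 486. The lower genes were IRF8, a monocyte and dendritic cell factor, with 111 against 2005, and GFI1, a repressor that favours granulocytes, with 1350 against 10527. SPI1 had 9577 against 5970. In NOMO-1 0 of 11 factors were higher and 1 lower, the immediate early gene EGR1. In MOLM-14 0 of 13 were higher and 3 lower, EGR1, its relative EGR2 and KLF2. None of the 10 receptor genes is on these marker lists, and the part of these shifts in the receptor differences was not tested.

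Summed markers of several other cell types differed in the same direction in all 3 lines. Those of T and NK cells, of stem and progenitor cells and of erythroid and megakaryocyte cells were lower with NCAM1 knockdown in each line, and epithelial or stromal ones were higher in each. Few genes made up much of these sums. In MOLM-14, GATA2 gave 1906 against 2128 counts of the stem and progenitor sum, and NKG7 1002 against 1242 of the T and NK sum. By mean log2 difference over the lines, 4 of 5 tested stem and progenitor markers were higher and 1 lower. Of the tested T and NK cell markers 2 were higher and 2 lower. The erythroid and megakaryocyte markers had 2 of 2 lower, and the epithelial or stromal ones 5 of 5 higher. Summed dendritic and B cell markers differed in direction between lines. The 7 dendritic markers found summed to 236 against 137 counts in SKM-1, 463 against 276 in NOMO-1 and 414 against 552 in MOLM-14. The 6 B cell markers summed to 139 against 566, 2835 against 978 and 1150 against 1335 in the same lines, and the 8 T and NK cell markers to 773 against 1958, 4179 against 5405 and 1043 against 1282. The 7 stem and progenitor markers summed to 1086 against 3131, 4323 against 5961 and 2096 against 2276. The 4 erythroid and megakaryocyte markers summed to 35.8 against 55.9, 258 against 554 and 73.1 against 90.3 counts, and the 6 epithelial or stromal ones to 1321 against 613, 3634 against 2688 and 770 against 444. Whether any of these has a part in the receptor differences was not tested.

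The second comparison asked which receptors differed with NCAM1 knockdown across the 3 lines, with each line as 1 replicate. No member passed: limma called 0 members at an adjusted p under 0.05, and 0% of the 19575 genes tested. Before adjustment, limma gave p under 0.05 for 1 of the 10 members, FCGR1A, against 4.48% of tested genes (877), 1.59% of them higher and 2.89% lower. On the recovered reads, edgeR also called 0 genes. Its unadjusted p was under 0.05 for 2 of the 10, FCGR1A and TLR4, against 4.41% of genes (863). DESeq2 called 43 genes, or 0.22%, none of them a member, and its unadjusted p was under 0.05 for 3 of the 10, FCGR1A, TLR4 and CLEC7A, against 5.63% of genes. FCGR1A was below 1 in all 3 lines, as were 15.9% of all tested genes, and TLR4 was above 1 in all 3, as were 14.6%. FCGR1A averaged 963 ± 699 counts with NCAM1 knockdown and 1435 ± 1143 in the controls (SD, n = 3 each). Its mean log2 difference was -0.55 with an SE of 0.196, and the limma p of 0.0386 became an adjusted p of 0.779. TLR4 averaged 3197 ± 4514 counts with NCAM1 knockdown and 1978 ± 2685 in the controls (SD, n = 3 each), and its mean log2 difference was 0.50 with an SE of 0.203 and a limma adjusted p of 0.779. The SDs of these counts hold the level differences between lines, which the fit removes as a block. The log2 ratios had an SD over the 3 lines of 0.182 for FCGR1A and 0.225 for TLR4. Each was smaller than the size of the mean log2 difference.

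The remaining members had wider errors, because the lines differed in size or direction. CD86 had the largest mean log2 difference of the 10, at 2.85 with an SE of 1.54, followed by CLEC7A at 2.45 with an SE of 1.90 and ITGAM at 1.28 with an SE of 0.793. CCR2 stood at -1.07 with an SE of 0.877, and CSF1R, FCN1, TLR2 and FCGR2A between -0.37 and 0.28. Limma adjusted p-values over these 8 ran from 0.779 to 0.962. The SKM-1 pair set several of these averages. Without it the mean log2 difference was 0.53 for CD86, 0.14 for ITGAM and 0.21 for CLEC7A, and it changed sign for TLR2 (-0.81), FCN1 (-0.84) and CCR2 (0.23). Without the NOMO-1 pair it changed sign for CSF1R (0.14) and FCGR2A (0.32), and was 2.19 for ITGAM and -1.96 for CCR2. Without the MOLM-14 pair it was 5.16 for CLEC7A, with a limma p of 0.00288 and an adjusted p of 0.86, and 4.42 for CD86, with a p of 0.0254 and the same adjusted p.

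The third comparison set the lines against each other, with the 2 libraries of a line as its replicates, and called a gene at a limma adjusted p under 0.05 and at least a 2-fold difference. These libraries received different shRNAs. The fit removed the mean knockdown difference, so the error reflects how far the difference of each line departs from that mean. TLR4 ordered all 3 lines: its libraries stood at 8383 and 5056 counts in SKM-1, 1068 and 763 in NOMO-1 and 141 and 116 in MOLM-14, with no overlap. FCN1 was at most 1.12 counts in MOLM-14 and at least 428 in the other lines. CCR2 was highest in NOMO-1 and lowest in SKM-1, and FCGR1A and CSF1R were highest in SKM-1.

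Against MOLM-14, SKM-1 had 2 of the 10 members called, both higher, where 8.06% of all tested genes were called higher and 7.79% lower. They were TLR4, with a log2 difference of 5.66 (SE 0.248, limma adjusted p 0.00228), and FCN1 (limma adjusted p 0.00517). The fitted FCN1 difference depends on the value added before taking logs. Set against a floor of 3 reads per library for MOLM-14, FCN1 was at least 1895-fold higher in the SKM-1 knockdown library than in that of MOLM-14. Between the control libraries the ratio was 937 with a counting interval of 168 to 37031. Both calls held in all 18 alternatives tried, with limma, edgeR or DESeq2 adjusted p-values from 7.68e-72 to 0.0442 for TLR4 and from 1.14e-12 to 0.0485 for FCN1.

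Against NOMO-1, SKM-1 had 3 members called higher and 1 lower, where 5.93% of tested genes were called higher and 7.78% lower. Higher were CSF1R by 2.41 on the log2 scale (SE 0.514, limma adjusted p 0.0454), FCGR1A by 2.64 (SE 0.240, adjusted p 0.00551) and TLR4 by 2.85 (SE 0.248, adjusted p 0.00512). CCR2 was lower, at -6.27 (SE 1.07, limma adjusted p 0.0265). The CSF1R call held in only 9 of 18 alternatives, with adjusted p-values from 0.00048 to 0.29, and the CCR2 call in 14 of 18. Leaving out either NOMO-1 library, which leaves 1 library assumed to vary like the other lines, ended all 4 calls, and 0 of the 19575 genes were then called.

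Between MOLM-14 and NOMO-1, FCGR1A was called higher in MOLM-14, by 1.67 on the log2 scale (SE 0.240, limma adjusted p 0.0184), where 5.26% of tested genes were. TLR4, at -2.81 (SE 0.248, adjusted p 0.00617), and FCN1 (limma adjusted p 0.0100) were called lower in MOLM-14, as were 8.01% of tested genes. By the floor of 3 reads, FCN1 was at least 137-fold lower in the MOLM-14 knockdown library than in that of NOMO-1. Between the control libraries it was 580-fold lower in MOLM-14, with a counting interval of 104 to 22950. Leaving out either NOMO-1 library ended these 3 calls, leaving out either MOLM-14 library ended that of FCGR1A, and leaving out the MOLM-14 knockdown library ended that of TLR4.

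**Figure D5:**
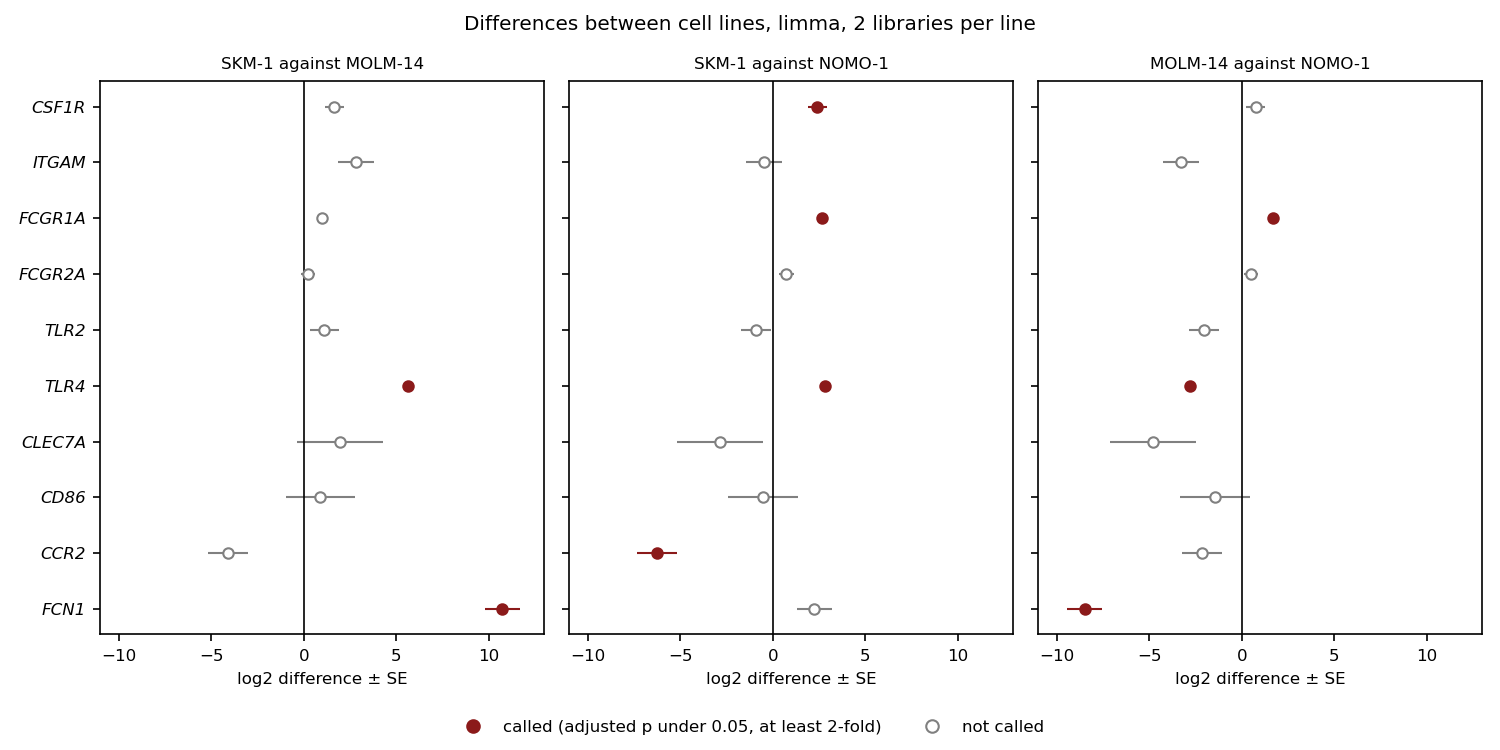
Log2 difference between cell lines with its limma SE for each receptor gene, from 2 libraries per line, the first-named line minus the second. Filled points were called. CLEC7A and CD86 carry the widest error bars, and TLR4 is called in all 3 panels.

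With all 6 libraries, limma called none of CLEC7A, CD86, ITGAM, TLR2 and FCGR2A between any pair of lines. DESeq2 on the recovered reads called 5 of the 10 members in each comparison, against 21.6% of tested genes for SKM-1 against MOLM-14, 18.6% for SKM-1 against NOMO-1 and 18.3% for MOLM-14 against NOMO-1. It called ITGAM higher in SKM-1 than in MOLM-14, by 3.23 on the log2 scale (DESeq2 adjusted p 0.00212), and lower in MOLM-14 than in NOMO-1, at -3.52 (adjusted p 0.000759). TLR2 was also called lower in MOLM-14 than in NOMO-1, at -2.10 (DESeq2 adjusted p 0.0373). For CD86, whose SKM-1 libraries hold both the lowest and the highest of the 6 levels, the SE of each line difference was 1.89. The level of CD86 in SKM-1 also overlapped with those of NOMO-1 and of MOLM-14, as did the levels of TLR2, CLEC7A and FCGR2A. For FCGR2A the overlap with NOMO-1 was narrow, at 2319 counts in the SKM-1 control and 2326 in the NOMO-1 control. ITGAM overlapped between SKM-1 and NOMO-1 only. Per kilobase of exon, as means of the 2 libraries of a line, the order of the receptors also differed. FCGR2A (473 normalized counts per kilobase) and FCGR1A (361) led in MOLM-14, while FCN1 was lowest at 0.112. In NOMO-1, ITGAM (1504), TLR2 (1113) and CCR2 (1044) led, and CSF1R was lowest at 68.6. ITGAM (1988) and CD86 (1437) led in the SKM-1 means, where CCR2 was lowest at 24.9. That order was not shared by the SKM-1 libraries. ITGAM (3668) and CD86 (2859) led in the knockdown library, while FCGR1A (892) and FCGR2A (436) led in the control, where CD86 stood at 15.4 and CLEC7A was lowest at 0.485. No test was made of these differences between genes.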

How the data were processed

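RNA of 6 libraries was sequenced as paired 100 bp reads from TruSeq libraries, per the labels. The authors deposited a signal table of read counts per gene, scaled by the size factor of each library, and a table of log2 values derived from it by an unnamed transformation. Per the submitters' processing notes, the tools were DESeq2 1.12.4, HTSeq 0.6.1p1, bcl2fastq 1.8.4 and STAR, with build hg19. No source used here gives the strand setting or the gene annotation.

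Whole reads were recovered from each column, with 100% of values whole at a tolerance of 0.001, which gave depths of 41916991 to 47688779 reads. A mean normalized count of at least 10 was required, which left 19575 genes to test. On log2(normalized count + 1), limma 3.58.1 (R 4.3.3) was fitted with lmFit and a trended eBayes, two-sided, with cell line and shRNA group as terms and Benjamini-Hochberg adjustment over all tested genes. It had 2 residual and 2.81 prior degrees of freedom. Folds on this scale understate changes of low genes. The line is the block: deviations of the 2 libraries of a line from their group means correlated at 0.850, 0.863 and 0.710 for MOLM-14, NOMO-1 and SKM-1. The p-values of the line comparisons rest on how far the knockdown difference of each line departs from the mean one, pooled over the 3 lines. They measure no spread between replicate cultures, since each line had 1 library per condition. Single lines were compared without a test, by ratios of normalized counts with exact conditional 95% intervals. Called there means 2-fold or more on the log2(normalized count + 1) scale with 100 or more normalized counts in 1 library. A count of 0 was set to a floor of 3 reads per library. Intervals and floors cover counting error only.

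Members and lists were chosen with earlier results of these data known. All members and NCAM1 are named, and from each list those called or up to 4 with the largest ratios in a line. TOLLIP, INPP5D, CXCR3, CD80, CEBPB, SPI1 and the single marker genes are named outside that rule, with their values seen. Some list genes that count in the totals are not reported here by name. Of 197 other list entries 184 were found. Exon lengths and overlaps came from GENCODE annotation of GRCh38, another build than that of the counts, and promoters from RefSeq (GRCh38.p14). The steps were tested on simulated data in which each changed gene had the same fold in all 3 lines. That test does not cover knockdown differences that vary between lines. Alternatives were other pseudocounts, filters, scalings, thresholds and variance settings, edgeR 4.0.16 and DESeq2 1.42.0 on recovered reads, no block, and leaving out libraries. The 18 alternatives of each line comparison include the main fit without the 2-fold rule, which could not end a call.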

Additional observations from a re-analysis of the deposited data

Results flagged for a closer look

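Knockdown differences of 8 of the 10 receptor genes pointed in opposite directions in different lines, with counting intervals on opposite sides of 1. Most tested genes also lacked a common direction. Of all 19575, 14.6% were above 1 in all 3 lines and 15.9% below 1 in all 3. The share of all genes with intervals on opposite sides of 1 was not counted, so the 8 cannot be read as a trait of the receptors. The difference between lines was not tested, because each line has 1 library per condition. The log2 ratio of knockdown over control was higher in SKM-1 than in NOMO-1 by 1.99 for CSF1R, 4.10 for ITGAM, 1.48 for FCGR2A, 3.16 for TLR2 and 3.10 for FCN1. It was higher in SKM-1 than in MOLM-14 by 9.90 for CLEC7A, where each line has 1 library of 2 reads, and by 7.78 for CD86. CCR2 went the other way, with a log2 ratio 4.37 higher in NOMO-1 than in SKM-1. FCGR1A and TLR4 showed no such opposition.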

How the results depend on the processing

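In the knockdown comparison over 3 lines, 0 members were called under every alternative run. Over all genes, DESeq2 called 43 and the other settings 0, and with no replicate block the counts were 0 genes and 0 members. That fit changed no other call. Leaving out a line pair gave ranges of -0.86 to 0.14 for CSF1R, -0.43 to 0.32 for FCGR2A, -0.81 to 0.77 for TLR2, -1.96 to 0.23 for CCR2 and -0.84 to 0.95 for FCN1. The 2 members called for SKM-1 against MOLM-14 became 5 with DESeq2, where 21.6% of tested genes were called, and leaving out a library gave 2 to 7, where 3.25% to 30.4% were. The 4 called for SKM-1 against NOMO-1 became 2 with edgeR (11.5% of genes called) and 2 with no filter (6.67%), and 0 to 7 on leaving out a library (0% to 25.7%). The 3 called for MOLM-14 against NOMO-1 became 5 with DESeq2 (18.3%), and 0 to 6 on leaving out a library (0% to 25%). The counts of 7 came without the SKM-1 control library. The CD86 difference of SKM-1 against NOMO-1, -0.54 in limma, was 1.10 in edgeR and 1.12 in DESeq2. Leaving out a library gave ranges across 0 for SKM-1 against MOLM-14 in CD86 (-2.59 to 4.40), CLEC7A (-2.13 to 6.02), FCGR2A (-0.33 to 0.77) and TLR2 (-0.35 to 2.58). It did so for SKM-1 against NOMO-1 in CD86 (-4.03 to 2.95), CLEC7A (-6.22 to 0.49), ITGAM (-2.19 to 1.24) and TLR2 (-2.37 to 0.56). For MOLM-14 against NOMO-1 it did so in CD86 (-3.79 to 0.90), CSF1R (-0.019 to 1.52) and FCGR2A (-0.044 to 1.08). In the single lines, a level of 10 counts gave MOLM-14 1 lower member (CLEC7A), and a 1.5-fold threshold 1 higher, against 2.71% of all genes with 100 counts. The 2 lower members of NOMO-1 became 1 with total-count scaling, 1 with quantile normalization and 1 with the authors' transformed values, where TLR2 missed 2-fold. A 1.5-fold threshold gave 3 higher members in NOMO-1, against 8.56% of such genes, and 5 lower, against 14.2%, and in SKM-1 8 higher, against 23.4%, and 2 lower, against 26.3%. Except where stated, the cause was not tested. CLEC7A in MOLM-14 and the SKM-1 control, FCN1 in MOLM-14 and CCR2 in the SKM-1 knockdown library had 21 reads or fewer, so counting error is wide there.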
